A study of Mus musculus with 8 samples.

Results

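The 33 genes described here are the tumour suppressor gene Trp53, genes that regulate it or are known to be activated by it, and genes of the apoptosis machinery, chosen as a named list and not by their values. All 33 were found by symbol among the 25215 entries of the count table, and all 33 were among the 15287 entries that passed the filter on low counts. Perp passed that filter only through its DS3201-treated libraries. The cells were immortalized mouse embryonic fibroblasts, a connective tissue cell grown in culture, labelled 6KO for loss of Setdb1, Suv39h1, Suv39h2, Ehmt1, Ehmt2 and Ring1b. Every group carried these deletions, so no group had intact H3K9 methyltransferases or intact RING1B, and every group carried a lentiviral shRNA, delivered at an MOI of 2 and selected with BSD at 7 µg/ml for 3 days. The combined group carried an shRNA against Ring1a and received DS3201 (1 uM, 7 days), which inhibits EZH1 and EZH2, the H3K27 methyltransferases. The inhibitor group carried a control shRNA and received DS3201 in the same way. The knockdown group carried the Ring1a shRNA without DS3201, and the control group carried the control shRNA without DS3201. Each group had 2 libraries of polyadenylated RNA. The sources do not say whether the line is 1 clone or how it was immortalized.

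The p53 protein is a transcription factor that is held at a low level by MDM2 and MDM4 and is stabilised by DNA damage and other stress. It then switches on genes that halt the cell cycle, repair DNA or start apoptosis, and MDM2 is itself one of its targets, which closes a negative feedback loop. In the mitochondrial route to apoptosis, BH3-only proteins such as PUMA and NOXA release the pore-forming proteins BAX and BAK from BCL-2 and its relatives. The pores let cytochrome c out, APAF1 assembles with it into the apoptosome, and caspases follow. Much of p53 control acts on the protein, which RNA counts do not measure.

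Promoter sequence is shown for 3 targets, because p53 acts through a short DNA element and these genes differ in exact matches to it. Windows of 300 bases, 250 before and 50 after the start, were available from RefSeq (GRCm38.p6) for 25 of the 33 genes, in 34 windows. They were searched on both strands for exact matches to the p53 half-site, the 10-base element that p53 binds as a pair. The pattern was RRRCWWGYYY, where R is A or G, W is A or T and Y is C or T. No mismatch was allowed. Ccng1 and Mdm2, 2 long-known p53 targets, have 1 exact match each, shown in capitals. Its first base lies at -185 and -186 from the start. Btg2 has no exact match in its window, which does not show that it lacks a p53 site. The windows are chr11:40755237-40755536 for Ccng1, chr10:117710709-117711008 for Mdm2 and chr1:134079106-134079405 for Btg2, all read on the minus strand, 5′ to 3′.
Ccng1: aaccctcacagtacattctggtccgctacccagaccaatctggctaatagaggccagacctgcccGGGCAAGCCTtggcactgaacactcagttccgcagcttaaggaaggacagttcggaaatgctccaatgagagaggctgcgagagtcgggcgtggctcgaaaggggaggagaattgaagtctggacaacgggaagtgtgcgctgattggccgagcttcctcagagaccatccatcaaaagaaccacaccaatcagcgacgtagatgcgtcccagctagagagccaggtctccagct
Mdm2: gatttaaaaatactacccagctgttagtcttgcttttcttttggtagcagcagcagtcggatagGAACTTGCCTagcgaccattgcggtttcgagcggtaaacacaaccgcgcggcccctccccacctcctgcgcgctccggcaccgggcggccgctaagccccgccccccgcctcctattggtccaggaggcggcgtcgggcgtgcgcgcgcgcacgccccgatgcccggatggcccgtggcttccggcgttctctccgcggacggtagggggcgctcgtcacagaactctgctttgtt
Btg2: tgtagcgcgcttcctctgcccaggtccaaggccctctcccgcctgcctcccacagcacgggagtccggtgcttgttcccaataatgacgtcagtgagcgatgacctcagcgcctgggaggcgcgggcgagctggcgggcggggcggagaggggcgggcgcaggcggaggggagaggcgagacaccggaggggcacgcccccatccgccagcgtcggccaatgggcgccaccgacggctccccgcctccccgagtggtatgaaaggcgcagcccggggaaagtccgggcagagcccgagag
A half-site was present in 9 of the 34 windows (26.5%), against 8.4% of all 32851 windows, and belonged to 8 genes, Trp53, Mdm2, Ccng1, Gadd45a, Sesn1, Bax, Ei24 and Aen. The 2 windows of Aen overlap, so 1 half-site may be counted in both. A full site, 2 exact half-sites at most 13 bases apart, was present in none of the 34 windows and in 0.07% of all windows. Sites with a mismatch were not counted, so a window without a match may still hold a p53 site. A match is a description of the letters and not of binding. No window was used for Zmat3, Trp53inp1, Rrm2b, Xpc, Ddb2, Pmaip1, Tnfrsf10b or Perp. The 34 windows held a median of 23.5 CpG dinucleotides, against 7 in all windows, so the shares with a half-site compare unlike windows.

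The libraries held 12738585 to 23688253 counts. CPM here is the count scaled to the TMM-adjusted library size, and 3 counts, the floor for a gene with no counts, correspond to 0.122 to 0.265 CPM. The libraries came in 2 sets, set 20 and set 28, of 1 library per group. The difference of set 20 from set 28 correlated between groups with r from 0.559 to 0.897 across all entries, so libraries of a set were treated as paired, and results are given both without and with a term for the set, called the replicate block. Ring1, the gene for RING1A, checked the knockdown. It had 3.52 and 2.04 CPM in combined libraries against 20.4 and 7.51 CPM in inhibitor libraries, and 4.51 and 1.41 CPM in knockdown libraries against 20.2 and 9.73 CPM in control libraries. Here and below the value of set 20 precedes that of set 28. Of 14 fibroblast markers, 10 exceeded 1 CPM in both control libraries, Col1a1, Col1a2 and Vim among them. Thy1 stayed under 0.5 CPM in all 8 libraries, and Lum was at 0 in the knockdown and control libraries.

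The inhibitor library of set 28 stood apart from the others. Its genes differed from the control library of its set by a median log2 value of 0.512 in the quintile of genes with the lowest GC content and of -0.612 in the quintile with the highest. In the other 3 treated libraries no quintile differed by more than 0.088 from its control library. The genes described here followed this pattern. Of the 8 with the highest GC content, 6 had their lowest level in that library, and of the 6 with the lowest GC content, 4 had their highest. It held the lowest level of 11 of the 33 genes, against 25.6% of all entries, and the highest of 7. The share of all entries highest there is not given. The control library of set 28, a baseline of several contrasts, held the lowest level of 9 of the 33, against 10.1% of all entries. Because of the GC pattern, results are also given without the inhibitor library of set 28 and with an offset for GC content.

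**Figure D1:**
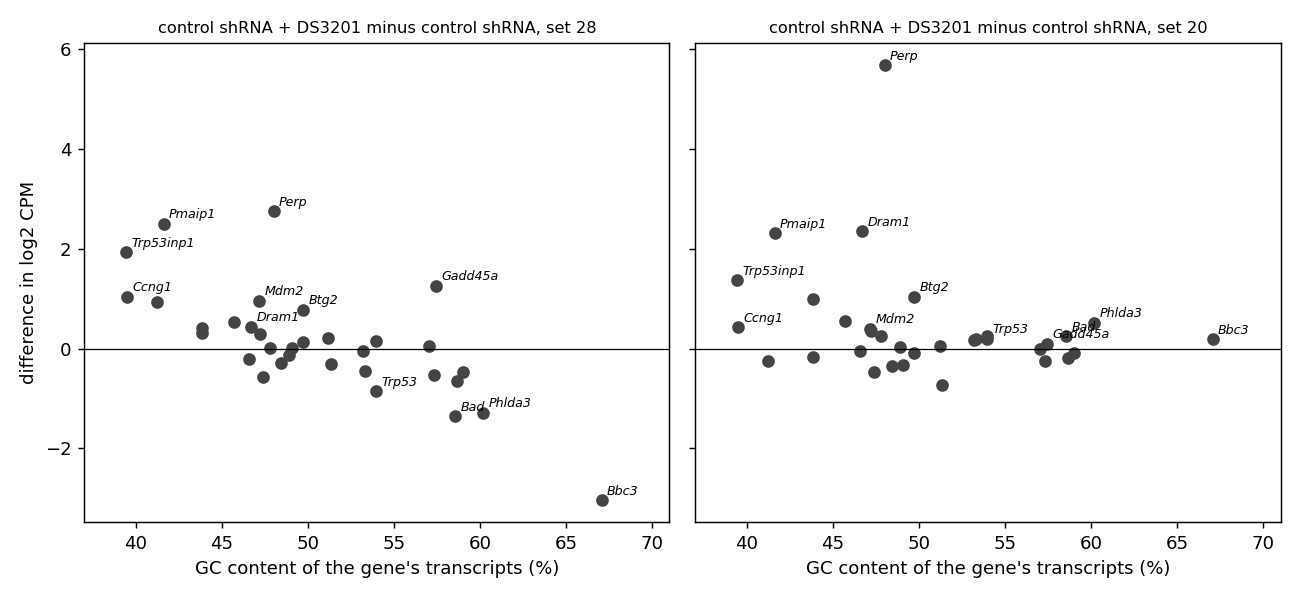
Difference in log2 CPM, control shRNA plus DS3201 minus control shRNA (y axis), against the GC content of the gene's transcripts in percent (x axis), in set 28 (left panel) and set 20 (right panel), with 1 point per gene for the 33 genes. In set 28 the points run lower with GC content, down to Bbc3 at -3.04, while in set 20 Bbc3 lies at 0.19 and the points show no such slope.

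Perp was higher with DS3201. Other listed p53 targets went both ways within both sets, with Ccng1 and Pmaip1 among the higher and Sesn1 and Ddb2 among the lower. Perp, a membrane protein needed for p53-dependent death that is also a part of epithelial cell junctions, had 5.90 and 1.73 CPM in combined libraries and 8.38 and 2.03 CPM in inhibitor libraries, against 0 and 0.135 CPM in knockdown libraries and 0.0475 and 0.201 CPM in control libraries. Every treated library lay above every untreated one, and the untreated ones rest on 0 to 3 counts each. Over the group, 171 counts in inhibitor libraries against 4 in control libraries gave a ratio of 53 (95% exact interval 20.3 to 197), and 121 counts in combined libraries against 2 in knockdown libraries a ratio of 75.6 (20.5 to 632). These intervals cover counting error only. Averaged over both shRNAs, the effect of DS3201 on Perp was a log2 fold change of 5.66 ± 1.02 (SE; adjusted p = 0.0288, edgeR quasi-likelihood test over all 15287 entries), and with the replicate block 5.62 ± 0.80 (adjusted p = 0.00433). Perp was tested only because its treated libraries, where it is high, passed the filter on low counts. Without that filter and without the block it was 5.61 (adjusted p = 0.0174, same test), still against 0 to 3 untreated counts a library. Without the block it passed when the knockdown library of set 28 was left out (adjusted p = 0.0472) and was lost without any other single library (adjusted p up to 0.111). With the block it held in all 8 such fits (adjusted p from 0.00114 to 0.0391). Perp lies at chr10:18845020-18857073 on the plus strand (GRCm38).

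Perp was the only one of the 33 genes called in the fit without the block, where 5.24% of all entries were called higher and 0.216% lower with DS3201. With the block 5 of the 33 rose and none fell, where 12.9% of all entries were called higher and 4.16% lower. The share of the list, 15.2%, is near that of all entries. Of the 33 log2 fold changes, 16 were positive, and their median was -0.02 with the block, against 0.04 over all entries. In these bulk libraries, fewer cells of a type and less RNA per cell cannot be told apart, and because no source says that libraries of a group are separate cultures, p-values may reflect technical spread alone.

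**Figure D2:**
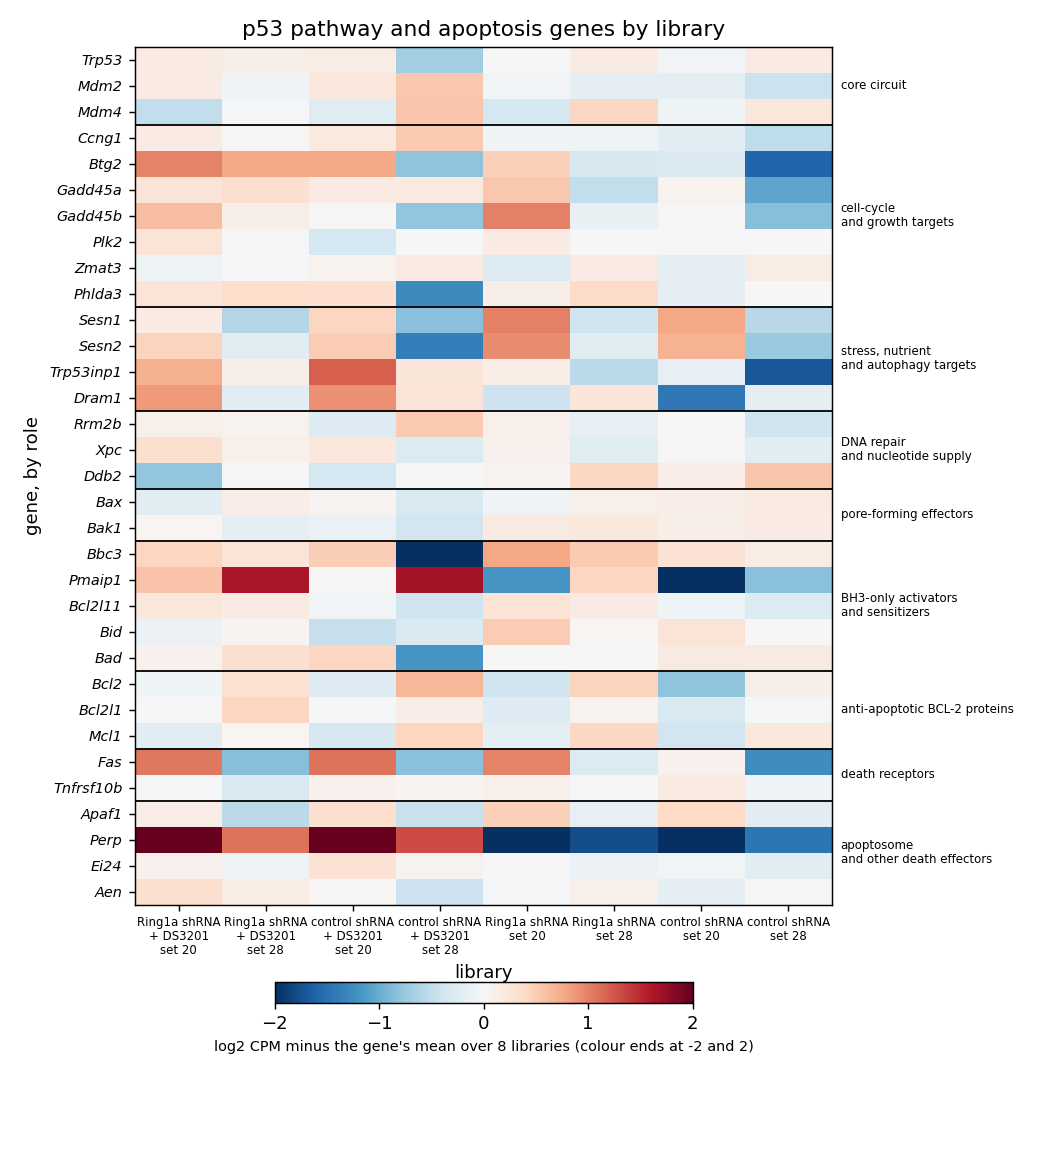
Log2 CPM of each of the 33 genes minus its mean over the 8 libraries (colour, ending at -2 and 2), with genes in rows by role and libraries in columns. Perp and Pmaip1 show the widest contrast between the 4 libraries with DS3201 and the 4 without, and the control shRNA plus DS3201 library of set 28 departs from its partner in rows such as Bbc3, Phlda3 and Bad.

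None of the 3 genes at the core of the circuit passed in the pooled contrast with or without the block, before the GC offset. Trp53 itself had 180.4 and 174 CPM in combined libraries, 178 and 98.8 CPM in inhibitor libraries, 159.8 and 181 CPM in knockdown libraries and 155 and 179 CPM in control libraries. The single low value is that of the inhibitor library of set 28, and the groups overlap. Its pooled log2 fold change with DS3201 was -0.12 ± 0.19 with the block (adjusted p = 0.696). It was 0.07 without that library, and -0.38 and called lower (adjusted p = 0.0109) without the inhibitor library of set 20. Mdm2, the ubiquitin ligase that removes p53, had 104 and 88.6 CPM in combined libraries, 108 and 134.5 CPM in inhibitor libraries, 89.1 and 80.8 CPM in knockdown libraries and 82.2 and 68.9 CPM in control libraries. Within each set both treated libraries lay above both untreated ones. The pooled difference was 0.43 ± 0.13 with the block and missed the threshold (adjusted p = 0.062). Without the inhibitor library of set 28 it was 0.26 (adjusted p = 0.0288), and with the GC offset and block 0.44 (adjusted p = 0.0168). Mdm4, the MDM2 partner that blocks p53 activity, ranged from 18.8 to 38.8 CPM with DS3201 and from 20.7 to 35.2 CPM without, a difference of -0.11 ± 0.14 (adjusted p = 0.621 with the block).

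Of the 7 targets that act on the cell cycle and growth, Ccng1 and Btg2 rose with the block. Ccng1, which encodes cyclin G1, had 194 and 176.5 CPM in combined libraries and 199 and 249.9 CPM in inhibitor libraries, against 164 and 162 CPM in knockdown libraries and 148 and 121 CPM in control libraries. All 4 treated libraries lay above all 4 untreated ones. The difference was 0.46 ± 0.13 (adjusted p = 0.0499 with the block, 0.15 without it). In fits that left out 1 library and kept the block, it passed in 2 of 8, those without the inhibitor library of set 28 (0.30, adjusted p = 0.0302) or of set 20 (0.57, adjusted p = 0.00278), and the other 6 gave 0.37 to 0.51. Btg2, an antiproliferative partner of the mRNA deadenylation machinery, had 36.2 and 30.8 CPM in combined libraries and 30.5 and 10.3 CPM in inhibitor libraries, against 25.1 and 14.5 CPM in knockdown libraries and 14.7 and 5.91 CPM in control libraries. Its treated and untreated libraries overlap, because the inhibitor library of set 28 lies below both knockdown libraries. The difference was 0.90 ± 0.23 (adjusted p = 0.0387 with the block, 0.389 without it), and 1.01 without that library (adjusted p = 0.0276). Among the 8 fits that left out 1 library and kept the block it passed in 2, the second being that without the combined library of set 20 (1.10, adjusted p = 0.0424). The other 6 gave 0.62 to 0.99. The remaining 5 genes gave no pooled call with or without the block. Gadd45a, a stress sensor in growth arrest, had 18.2 to 20.4 CPM in treated libraries and 7.72 to 23.6 CPM in untreated ones. Gadd45b, its relative, had 27.3 to 72.6 CPM with DS3201 and 26.3 to 95.5 CPM without. Plk2, a stress-induced polo-like kinase, ran from 172 to 264 CPM with DS3201 and from 216 to 245 CPM without. Zmat3, an RNA-binding zinc finger protein, lay between 28.6 and 39.0 CPM in all libraries. Phlda3, an inhibitor of AKT, had 18.0 CPM in the inhibitor library of set 28 and between 38.6 and 57.0 CPM in the other 7. With the block its pooled difference was 0.26 without that library (adjusted p = 0.0461) and -0.61 without the inhibitor library of set 20 (adjusted p = 0.00292), so its direction rests on which of these libraries is used.

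Of the 4 targets in stress, nutrient and autophagy control, Trp53inp1 rose with the block. Trp53inp1, a nuclear and autophagy protein that helps p53 act, had 51.2 and 34.1 CPM in combined libraries and 72.0 and 36.8 CPM in inhibitor libraries, against 34.6 and 21.4 CPM in knockdown libraries and 27.8 and 9.53 CPM in control libraries. Within each set both treated libraries lay above both untreated ones, and across sets the groups overlap. The pooled difference was 1.12 ± 0.18 (adjusted p = 0.0062 with the block, 0.241 without it), and it passed in all 8 fits that left out 1 library and kept the block. Dram1, a lysosomal protein of p53-driven autophagy, had 27.6 and 13.2 CPM in combined libraries, 28.9 and 18.2 CPM in inhibitor libraries, 11.4 and 18.0 CPM in knockdown libraries and 5.56 and 13.4 CPM in control libraries. The treated libraries were the higher in set 20 by 1.81 on the log2 scale and differed by 0.00 in set 28. The sestrin genes Sesn1 and Sesn2, which restrain mTORC1 under stress, differed by -0.42 ± 0.16 (adjusted p = 0.116 with the block) and -0.29 ± 0.20 (adjusted p = 0.377). Both were higher in set 20 than in set 28 in every group.

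Of the 3 repair and nucleotide genes, none passed in the pooled contrast with or without the block, before the GC offset. Ddb2, the damage-binding subunit of nucleotide excision repair, had 4.27 and 7.47 CPM in combined libraries and 5.83 and 7.42 CPM in inhibitor libraries, against 7.76 and 10.03 CPM in knockdown libraries and 8.17 and 11.1 CPM in control libraries. All 4 treated libraries lay below all 4 untreated ones. The difference was -0.58 ± 0.17 (adjusted p = 0.0646 with the block), -0.57 without the inhibitor library of set 28 (adjusted p = 0.0499) and -0.57 with the GC offset and block (adjusted p = 0.044). Xpc, the partner that recognises distorted DNA, had 14.5 to 21.9 CPM with DS3201 and 14.7 to 18.7 CPM without. Rrm2b, the p53-inducible ribonucleotide reductase subunit, had 32.7 to 56.4 CPM with DS3201 and 29.6 to 42.1 CPM without.

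**Figure D3:**
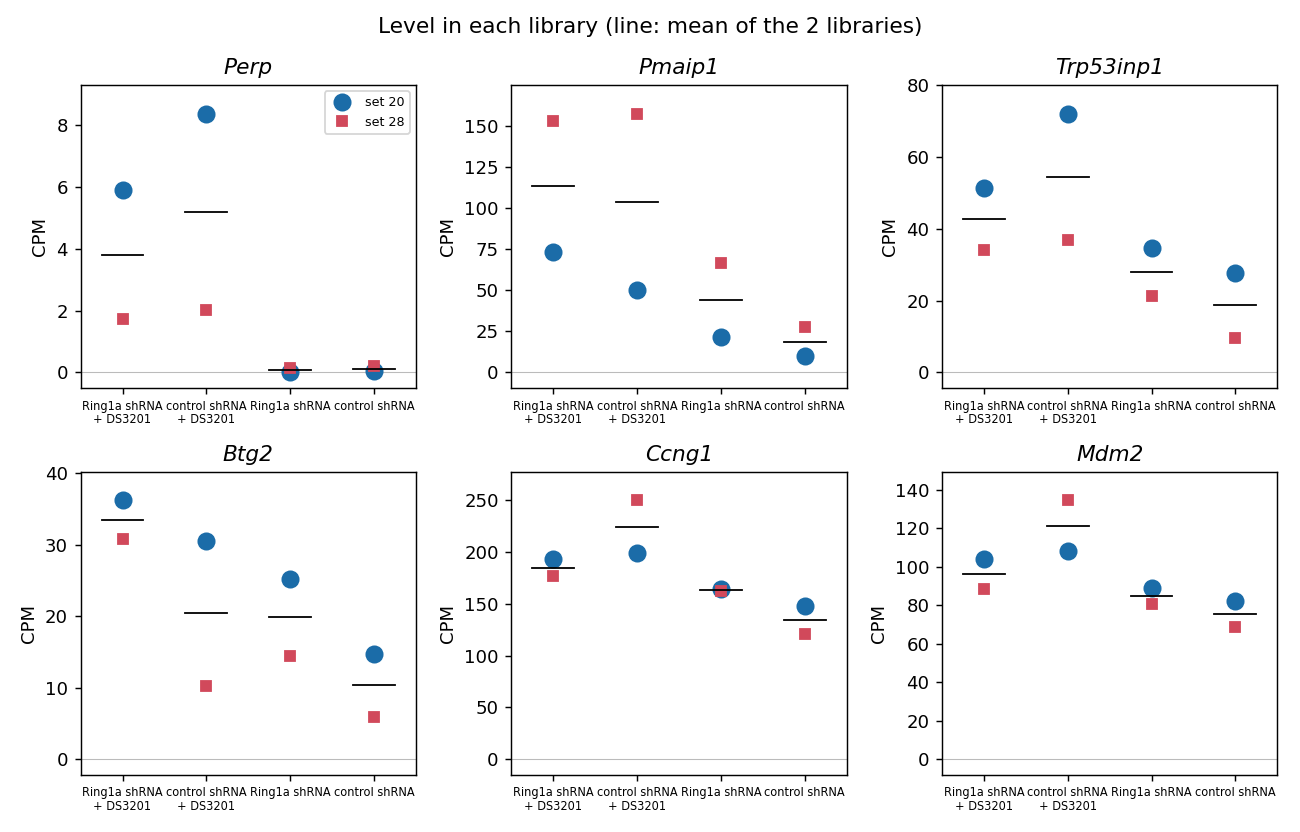
CPM (y axis) of Perp, Pmaip1, Trp53inp1, Btg2, Ccng1 and Mdm2 in each library, by group on the x axis, with circles for set 20, squares for set 28 and a line at the mean of the 2 libraries. Perp is near 0 in all untreated libraries and at 1.73 to 8.38 CPM in treated ones, and in each set the treated libraries lie above the untreated ones for every gene shown except Btg2 in set 28.

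Of the 5 BH3-only genes, Pmaip1 rose with the block. Pmaip1, which encodes NOXA, had 73.5 and 153 CPM in combined libraries and 50.2 and 157 CPM in inhibitor libraries, against 21.8 and 66.8 CPM in knockdown libraries and 9.98 and 27.6 CPM in control libraries. Within each set both treated libraries lay above both untreated ones, and set 28 lay above set 20 in every group. The pooled difference was 1.95 ± 0.14 with the block (adjusted p = 0.00029) and 1.91 ± 0.59 without it (adjusted p = 0.142). With the block it passed in all 8 fits that left out 1 library, from 1.80 to 2.08. Pmaip1 lies at chr18:66458533-66465565 on the plus strand.

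The other 4 BH3-only genes gave no call with all libraries. Bbc3, which encodes PUMA, had 5.53 and 4.86 CPM in combined libraries, 5.72 and 0.442 CPM in inhibitor libraries, 6.99 and 5.86 CPM in knockdown libraries and 4.99 and 4.50 CPM in control libraries. The single low value, 5 counts in the inhibitor library of set 28, belongs to the gene whose transcripts have 67.1% GC, and the pooled difference was -0.56 ± 0.51 with the block (adjusted p = 0.487). Leaving out 1 library and keeping the block moved it between -1.81 and -0.10, and it was called without the inhibitor library of set 20 (-1.81, adjusted p = 0.00293 with the block, and -1.86, adjusted p = 0.0349 without it). Bad, which frees BAX and BAK by binding BCL-2 and BCL-XL, had 10.2 CPM in the same library and between 23.2 and 31.3 CPM in the others. Bcl2l11, which encodes BIM, had 26.9 to 41.4 CPM with DS3201 and 29.5 to 43.1 CPM without. Bid, the link from death receptors to mitochondria, had 48.5 to 69.7 CPM with DS3201 and 67.6 to 95.5 CPM without, a difference of -0.41 ± 0.14 (adjusted p = 0.0979 with the block). Without the inhibitor library of set 28 it was -0.54 (adjusted p = 0.0423).

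Among the pore-forming effectors, Bak1 had 203 and 173 CPM in combined libraries and 179.7 and 153 CPM in inhibitor libraries, against 225 and 229 CPM in knockdown libraries and 214 and 222 CPM in control libraries. All 4 treated libraries lay below all 4 untreated ones. The pooled difference was -0.34 ± 0.11 (adjusted p = 0.0784 with the block). It was -0.33 when the inhibitor library of set 28 was left out (adjusted p = 0.0281). Bax had 31.5 and 40.2 CPM in combined libraries, 37.7 and 29.6 CPM in inhibitor libraries, 34.5 and 39.0 CPM in knockdown libraries and 39.9 and 41.1 CPM in control libraries. Its difference of -0.15 ± 0.14 did not pass (adjusted p = 0.506 with the block).

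Genes for the 3 anti-apoptotic proteins gave no pooled call with or without the block, before the GC offset. Bcl2l1, which encodes BCL-XL, had 30.6 and 41.4 CPM in combined libraries, 29.9 and 33.7 CPM in inhibitor libraries, 25.6 and 32.2 CPM in knockdown libraries and 24.9 and 30.2 CPM in control libraries. It was the single gene of the 33 whose level went up in the order control, knockdown, inhibitor, combined in both sets, as 2.9% of all entries did. The pooled difference was 0.26 ± 0.12 (adjusted p = 0.168 with the block), and 0.39 with the GC offset and block (adjusted p = 0.024). Bcl2 had 22.3 to 42.0 CPM with DS3201 and 15.2 to 36.3 CPM without, a difference of 0.32 ± 0.14 (adjusted p = 0.169 with the block). Mcl1, whose protein turns over quickly, had 140 to 236 CPM with DS3201 and 134 to 234 CPM without, a difference of -0.03 ± 0.12 (adjusted p = 0.897 with the block).

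Neither death receptor passed in the pooled contrast. Fas had 31.2 and 8.24 CPM in combined libraries, 31.8 and 8.30 CPM in inhibitor libraries, 30.0 and 12.4 CPM in knockdown libraries and 15.8 and 6.24 CPM in control libraries. The control library was the lowest of its set in both sets, and the difference between sets, 1.61 on the log2 scale on average, exceeded those between groups. Its pooled DS3201 difference was 0.24 ± 0.17 (adjusted p = 0.379 with the block). Tnfrsf10b, the mouse receptor for TRAIL, lay between 62.2 and 86.3 CPM in all libraries.

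None of the remaining 3 death effectors passed with all libraries. Apaf1, the scaffold of the apoptosome, had 43.3 to 79.4 CPM with DS3201 and 53.4 to 87.3 CPM without, and was the lower with DS3201 within each set. Its difference was -0.24 ± 0.10 (adjusted p = 0.145 with the block). It was -0.25 when the inhibitor library of set 28 was left out (adjusted p = 0.0368). Ei24, an endoplasmic reticulum protein first found as a p53-induced gene, had 66.7 to 85.9 CPM with DS3201 and 59.9 to 70.5 CPM without. Aen, an exonuclease that enhances apoptosis, had 19.5 to 32.7 CPM with DS3201 and 23.1 to 27.9 CPM without.

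With the block, and leaving out the inhibitor library of set 28, 7 of the 33 genes rose and 4 fell in the pooled contrast, where 14.2% of all entries were called higher and 11.8% lower. The 7 were Perp, Pmaip1, Btg2, Trp53inp1, Ccng1, Mdm2 and Phlda3, and the 4 were Bid, Bak1, Ddb2 and Apaf1. Without the inhibitor library of set 20 instead, which leaves the GC-shifted library alone in its group, 6 rose and 8 fell, where 22.8% of all entries were called higher and 19.1% lower. Phlda3, Bbc3, Bad, Bax and Trp53 were among the 8. With the GC offset and the block, Perp, Pmaip1, Btg2, Trp53inp1, Ccng1, Mdm2 and Bcl2l1 rose and Ddb2 fell, where 16.1% of all entries were called higher and 6.4% lower. Within both sets, 7 of the 33 genes had both treated libraries above both untreated ones (21.2%, against 19.3% of all entries), and 4 had them below (12.1%, against 13.3%). All 4 treated libraries lay above all 4 untreated ones for Ccng1 and Perp, as for 12.3% of all entries, and below for Ddb2 and Bak1, as for 5.28%.

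**Figure D4:**
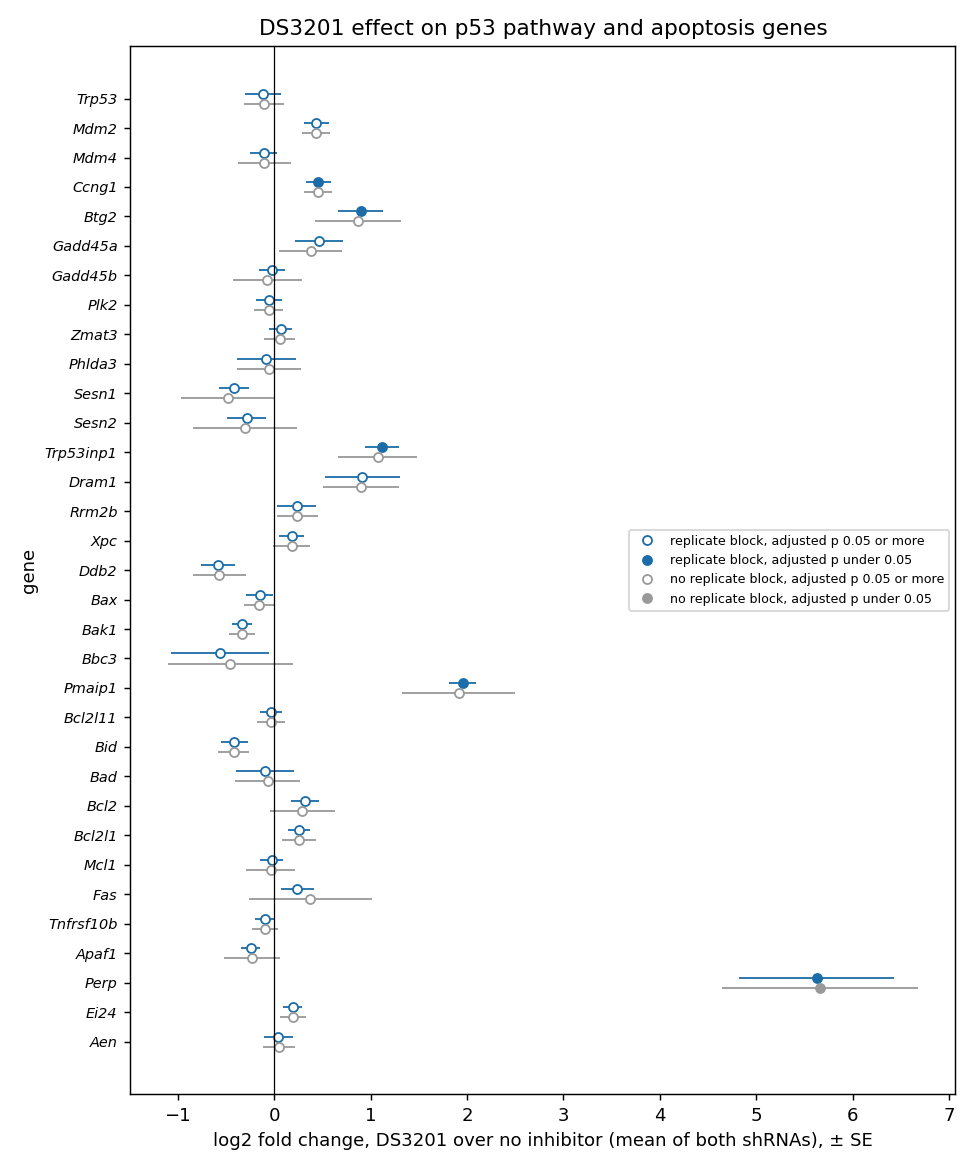
Log2 fold change of DS3201 averaged over both shRNAs (x axis, bars giving the SE) for each of the 33 genes (y axis), from the fits with the replicate block (blue) and without it (grey), with filled points for adjusted p under 0.05. The 5 filled blue points, Perp, Pmaip1, Trp53inp1, Btg2 and Ccng1, and the 1 filled grey point, Perp, lie on the positive side.

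The same inhibitor was given with either shRNA, and each contrast has its own untreated group. With the Ring1a shRNA, combined against knockdown, no gene of the 33 was called without the block, where 0.602% of all entries were called higher and 0% lower. With the block Perp (5.96 ± 1.18, adjusted p = 0.0302) and Pmaip1 (1.48 ± 0.19, adjusted p = 0.00688) rose, where 6.05% of all entries were called higher and 0.824% lower. With the control shRNA, inhibitor against control, no gene of the 33 was called without the block either, where 0.726% of all entries were called higher and 0% lower. With the block Perp (5.29 ± 1.07, adjusted p = 0.0318), Pmaip1 (2.43 ± 0.20, adjusted p = 0.00139) and Trp53inp1 (1.62 ± 0.25, adjusted p = 0.014) rose, where 6.62% of all entries were called higher and 0.706% lower. Without the inhibitor library of set 28 this contrast has 1 treated library, assumed to vary like the other groups, and with the block Pmaip1 alone passed (2.22, adjusted p = 0.00431), where 4.17% of all entries were called higher and 1.63% lower. In the Ring1a shRNA contrast the same fit called Perp and Pmaip1 higher and Apaf1 lower (-0.37, adjusted p = 0.0336), where 7.89% of all entries were called higher and 5.32% lower. With the GC offset and block, Perp and Pmaip1 rose with the Ring1a shRNA, where 7.76% of all entries were called higher and 1.76% lower. With the control shRNA that fit called Perp, Pmaip1, Trp53inp1 and Mdm2 (0.64, adjusted p = 0.0295) higher, where 8.62% of all entries were called higher and 1.48% lower. Over the 8 fits that left out 1 library and kept the block, Perp passed in 5 with the Ring1a shRNA (3.72 to 9.58) and in 3 with the control shRNA (3.49 to 7.08). With the Ring1a shRNA it was lost without the knockdown library of set 20 or either combined library, and with the control shRNA it passed without the control library of set 28 or either knockdown library. Pmaip1 passed in all 8 with the control shRNA, and with the Ring1a shRNA it was lost without the knockdown or the combined library of set 20. Trp53inp1 with the control shRNA was lost without the control or inhibitor library of set 28 or the combined library of set 20. At an unadjusted p under 0.05 and without the block, 1 gene was higher with the Ring1a shRNA, as were 8.37% of all entries, and 5 were higher with the control shRNA, as were 10.3% of all entries.

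The difference between these 2 effects of DS3201, the interaction, gave no call among the 33 genes or among all entries, where 0% were called, without or with the block. Without the block no gene of the 33 had an unadjusted p under 0.05. With the block 3 had, and all 3 had the lower DS3201 difference with the Ring1a shRNA. They were Pmaip1 (-0.94 ± 0.27, adjusted p = 0.99), Trp53inp1 (-0.99 ± 0.35, adjusted p = 0.99) and Fas (-0.99 ± 0.34, adjusted p = 0.99). All 3 are in the quintile of genes with the lowest GC content, where the inhibitor library of set 28 exceeded its control by a median of 0.512. The part of that shift in these values was not tested. For Fas the difference with the Ring1a shRNA was 0.056 in set 20 and -0.581 in set 28. Each of the 3 had a negative interaction in both sets, but the 3 were picked by their p-values, so this is not separate support. The share of all entries at that threshold with the block is not given, so the count of 3 cannot be set against it. Leaving out the inhibitor library of set 20, with the block, gave 4 genes a higher and 3 a lower interaction, with the GC-shifted library alone in its group, where 6.72% of all entries were called higher and 6.21% lower.

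The combined group against the control group gave no call among the 33 genes without the block, where 1.43% of all entries were called higher and 0.0327% lower, and 3 genes were higher at an unadjusted p under 0.05, as were 10.4% of all entries. With the block 5 rose and none fell, where 9.21% of all entries were called higher and 2.06% lower. Pmaip1 was higher by 2.69 ± 0.20 (adjusted p = 0.000878), Perp by 4.87 ± 1.07 (adjusted p = 0.031), Btg2 by 1.86 ± 0.34 (adjusted p = 0.0164), Trp53inp1 by 1.32 ± 0.25 (adjusted p = 0.0194) and Gadd45b by 0.78 ± 0.19 (adjusted p = 0.0415). Gadd45b had 72.6 and 51.4 CPM in combined libraries, 48.4 and 27.3 CPM in inhibitor libraries, 95.5 and 42.8 CPM in knockdown libraries and 48.4 and 26.3 CPM in control libraries. The inhibitor and control libraries of a set lay close together, and both groups with the Ring1a shRNA lay above them. Gadd45b passed in 2 of the 8 fits that left out 1 library and kept the block, those without an inhibitor library, and ranged from 0.54 to 1.02 over the 8. Pmaip1 passed in all 8, while Btg2 was lost without either control library or the combined library of set 28, and Trp53inp1 without the control library of set 28 or either combined library. Perp was lost without the control library of set 20 (3.12, adjusted p = 0.283) or either combined library. With the GC offset and block 5 rose, Ccng1 (0.52, adjusted p = 0.026) in place of Gadd45b, where 11.8% of all entries were called higher and 3.68% lower. Without the inhibitor library of set 28, whose group is no part of this contrast but shares in the estimate of spread, 10 of the 33 rose and 2 fell with the block, where 13.1% of all entries were called higher and 10.8% lower. The 5 genes added to those that rose were Mdm2, Ccng1, Phlda3, Bcl2l11 and Fas, and the 2 that fell were Ddb2 and Apaf1. This contrast shares its control libraries with the DS3201 and Ring1a contrasts, so their values are given side by side and not counted as separate evidence.

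The Ring1a shRNA alone gave no call among the 33 genes or among all entries, where 0% were called in either direction, with and without the block. Without the block no gene of the 33 had an unadjusted p under 0.05. Of the 33 log2 differences, 27 were positive, and 24 (72.7%) were positive in both sets, against 35.3% of all entries. Their median was 0.17, against 0.01 over all entries. The 6 with an unadjusted p under 0.05 with the block were Pmaip1 at 1.20 ± 0.19 (adjusted p = 0.705), Fas at 0.96 ± 0.25 (adjusted p = 1), Gadd45b at 0.85 ± 0.19 (adjusted p = 0.915), Btg2 at 1.01 ± 0.33, Trp53inp1 at 0.70 ± 0.25 and Bcl2l11 at 0.40 ± 0.16 (adjusted p = 1 for the last 3). These 6 were picked by that p, and the share of all entries under 0.05 with the block is not given. Pmaip1 had 21.8 and 66.8 CPM in knockdown libraries against 9.98 and 27.6 CPM in control libraries. With DS3201 present, combined against inhibitor, no gene passed without or with the block, as among all entries, where 0% were called. Without the inhibitor library of set 20 and with the block, 7 were called higher and 3 lower, where 13.2% of all entries were called higher and 13.7% lower. With all libraries 10 of the 33 (30.3%) were higher in both sets, against 26% of all entries, and the median difference was 0.08 with the block, against -0.01 over all entries. Whether the 2 Ring1a contrasts differ is the interaction already given.

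**Figure D5:**
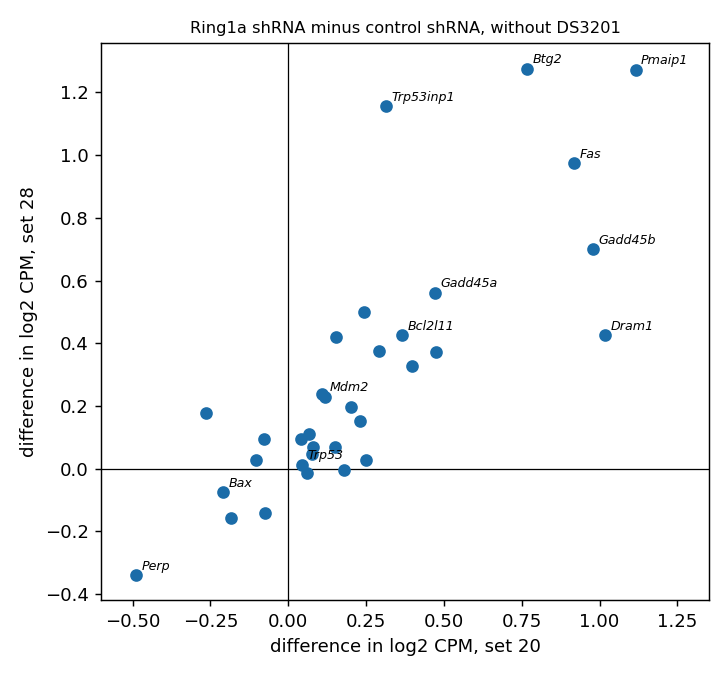
Difference in log2 CPM, Ring1a shRNA minus control shRNA without inhibitor, in set 20 (x axis) and in set 28 (y axis), with 1 point per gene and lines at 0. Of the 33 points, 24 are above 0 on both axes, with Pmaip1 at 1.12 in set 20 and 1.27 in set 28.

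Other genes of the pathway were counted by list. Of 27 further p53 targets, all tested, 3 rose with DS3201 and 1 fell with the block, and 1 rose without it. Cdkn1a, which encodes the cell-cycle inhibitor p21, had 153 and 149 CPM in combined libraries and 173 and 89.8 CPM in inhibitor libraries, against 92.1 and 63.1 CPM in knockdown libraries and 61.4 and 31.1 CPM in control libraries. Its pooled difference was 1.26 ± 0.18 (adjusted p = 0.00392 with the block, 0.0775 without it). Trp53i11 had 23.6 and 7.86 CPM in combined libraries and 11.9 and 0.883 CPM in inhibitor libraries, against 0.0812 and 0 CPM in knockdown libraries and 0 in both control libraries (adjusted p = 0.0282 without the block). Its fitted fold is not given because untreated libraries held almost no counts, and like Perp it passed the filter on low counts only through treated libraries, where it is high. The gene for TIGAR, listed as 9630033F20Rik, was higher by 0.58 ± 0.13 (adjusted p = 0.0226 with the block), and Pml, which forms nuclear bodies, was lower, at -0.67 ± 0.18 (adjusted p = 0.0454).

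Of 21 regulators of p53 and damage kinases, 20 were tested, and 2 rose with the block and 1 without it. Of all entries, 12.9% were called higher with the block and 5.24% without it. Sirt1, a deacetylase of p53, was higher by 0.66 ± 0.12 (adjusted p = 0.0108 with the block, 0.0464 without it), with 86.7 and 82.2 CPM in combined libraries, 65.4 and 75.2 CPM in inhibitor libraries, 61.1 and 51.1 CPM in knockdown libraries and 45.9 and 39.1 CPM in control libraries. Trp53bp2, which steers p53 to apoptosis genes, was higher by 0.68 ± 0.12 (adjusted p = 0.00935 with the block). Of 18 other BCL-2 family genes, 10 were tested and none passed, without or with the block, and none had an unadjusted p under 0.05 in either fit.

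Of 26 caspases, inhibitors of apoptosis and cofactors, 25 were tested, and with the block 1 rose and 2 fell, while none passed without it, where 3 had an unadjusted p under 0.05. At that unadjusted threshold without the block, 13.3% of all entries were higher and 4.44% lower. Cycs, which encodes cytochrome c, was higher by 0.53 ± 0.11 (adjusted p = 0.0207). Casp12 was lower, at -0.73 ± 0.11 (adjusted p = 0.00635), with 34.7 and 19.0 CPM in combined libraries, 51.5 and 37.2 CPM in inhibitor libraries, 71.4 and 42.5 CPM in knockdown libraries and 71.7 and 44.0 CPM in control libraries. Aifm1, the mitochondrial apoptosis-inducing factor, was lower too, at -0.53 ± 0.12 (adjusted p = 0.0226). Of 18 genes of death receptor signalling, 15 were tested, and with the block 1 rose and 1 fell, while none passed without it, where 4 had an unadjusted p under 0.05. Tnfrsf21, which encodes death receptor 6, had 35.7 and 45.7 CPM in combined libraries and 24.1 and 33.5 CPM in inhibitor libraries, against 1.42 and 7.07 CPM in knockdown libraries and 0.523 and 5.97 CPM in control libraries, a difference of 3.63 ± 0.51 (adjusted p = 0.0043 with the block). Tnfrsf1b, a receptor for TNF, was lower, at -0.63 ± 0.14 (adjusted p = 0.0201).

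Markers of 5 other cell types were summed. The summed level of 6 epithelial markers was 140.5 and 29.8 CPM in combined libraries and 136.8 and 23.5 CPM in inhibitor libraries, against 61.1 and 20.1 CPM in knockdown libraries and 67.9 and 17.7 CPM in control libraries. Nearly all of it was Krt14, while Epcam stayed at or under 1.06 CPM in treated libraries and at 0 in untreated ones, and Krt18 was under 0.1 CPM throughout. The sum of 5 endothelial markers was 40.5 to 64.5 CPM with DS3201 and 11.4 to 22.6 CPM without, and 1 of these 5 exceeded 1 CPM in both control libraries. Its difference was mostly Flt4, at 21.8 to 50.02 CPM with DS3201 and 0 to 0.731 CPM without, while Kdr had 10.9 to 14.4 CPM with DS3201 and 9.17 to 21.1 CPM without. The sum of 5 neuronal markers was 60.65 to 112.8 CPM with DS3201 and 15.4 to 69.7 CPM without. Those of 8 blood and macrophage markers (10.6 to 17.8 CPM with DS3201, 6.46 to 18.6 CPM without) and of 5 muscle markers (10.9 to 25.7 CPM with, 4.44 to 34.4 CPM without) overlapped. The sum of 14 fibroblast markers was 12560 to 15190 CPM with DS3201 and 19250 to 21600 CPM without. Members of that list went both ways, with Col1a1 at 3052 to 4443 CPM with DS3201 and 5547 to 6954 CPM without, Pdgfra at 8.95 to 28.4 CPM with and 0.190 to 7.27 CPM without, and Dcn at 6.71 to 9.67 CPM with and 0 to 0.404 CPM without. The sum of 16 cell-cycle genes was 3590 to 4748 CPM with DS3201 and 3379 to 3781 CPM without, and none of the 16 passed with the block. The part of these levels in the differences of Perp and the other p53 genes was not tested.

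The 33 genes differed between the sets, as did all entries. In all 4 groups 12 of them (36.4%) were higher in set 20 and 7 (21.2%) in set 28, against 24.9% and 25.2% of all entries. The mean difference of set 20 from set 28 exceeded 1 on the log2 scale in 4 genes (12.1%), against 14.2% of all entries. The 4 were Fas at 1.61, Sesn2 at 1.30, Sesn1 at 1.18 and Pmaip1 at -1.44. Without a term for the set such differences count as spread. The biological coefficient of variation of the fit was 0.409 without the block and 0.203 with it.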

How the data were processed

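The deposited table holds the authors' unnormalized counts of reads for 24062 genes and 1153 repeat subfamilies. Per the submitters' processing notes, trimming used Trim Galore and alignment used TopHat2 with mm10. The counter, its use of strand and its annotation were not given in the sources used here. A further 8 columns, which no label matches, were left out.

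Testing used edgeR 4.0.16 in R 4.3.3: filterByExpr by group, TMM scaling, 1 term per group, all 8 libraries, and a robust two-sided quasi-likelihood F test. P-values were adjusted by Benjamini-Hochberg across the 15287 entries kept, with 0.05 as threshold. The SE of a log2 fold change is its size divided by the square root of F. Log2 CPM had a prior count of 2.

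Replicate numbers and batches in the labels are not tied to the column prefixes 20 and 28. The prefixes were taken to pair libraries because their differences correlated between every pair of groups (r at least 0.559), and the set entered a second fit as the replicate block. Alternatives were DESeq2 1.42.0, its size factors, no filter, no repeats, only the groups compared, and each library left out. The GC offset, and the block with DESeq2 size factors or without repeats, were added after the data were seen.

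Every one of the 33 genes is accounted for. Fuller statistics go to genes called in a contrast and to Trp53, Mdm2, Mdm4, Bax, Bak1, Bcl2, Bcl2l1, Mcl1, Bbc3 and Fas, and each companion list names at most 4 called genes. The genes, lists and tests were chosen with earlier results of these data known. The test without the block was checked on simulated counts with no difference between sets. Their spread was below that of the fit without the block, whose biological coefficient of variation was 0.409. The check therefore does not cover data this variable. Positions are from GENCODE vM21 (GRCm38). Floors and intervals cover counting error only, since the reads carry no molecular identifiers.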

Additional observations from a re-analysis of the deposited data

Results flagged for a closer look

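The DS3201 differences of Mcl1 had opposite signs with the 2 shRNAs in both sets, averaging -0.20 on the log2 scale with the Ring1a shRNA and 0.14 with the control shRNA. In set 20 they were small, at 0.061 with the control shRNA and -0.024 with the Ring1a shRNA. In set 28 they were 0.212 and -0.375, and the GC-shifted inhibitor library of that set held the highest Mcl1 level. This difference between the shRNAs was picked for its signs and not tested, and the share of all entries with such signs is not given.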

How the results depend on the processing

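The replicate block decided most calls. Of the 33 genes, those called higher numbered 5 in the pooled contrast, 3 with the control shRNA, 2 with the Ring1a shRNA and 5 in the combined group with the block, against 1, 0, 0 and 0 without it. The block changed no count of genes called lower and none in the Ring1a or interaction contrasts. In the same order the counts were 3, 3, 1 and 2 by DESeq2's Wald test, 4, 3, 2 and 5 with the block and DESeq2 size factors, 5, 3, 2 and 5 with the block and genes only, and 7, 4, 2 and 5 with the block and GC offset, which also called 1 lower in the pooled contrast. Among all entries, the block called 1974 higher and 636 lower in the pooled contrast, against 801 and 33 without it. Over the 9 alternative fits that kept all libraries, 792 to 2466 of all entries were called higher there and 33 to 978 lower.

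Leaving out 1 library, with or without the block, gave 0 to 7 higher and 0 to 8 lower in the pooled contrast, 0 to 6 and 0 to 6 with the control shRNA, 0 to 2 and 0 to 1 with the Ring1a shRNA, 0 to 11 and 0 to 2 in the combined group, 0 to 7 and 0 to 3 for the Ring1a shRNA with DS3201, and 0 to 4 and 0 to 3 for the interaction. Every count above 0 in the last 2 came from leaving out the inhibitor library of set 20.

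Phlda3 changed sign between fits. Among the genes given fuller statistics, pooled log2 differences that changed sign were all of genes with no pooled call on all libraries. Gadd45b (-0.07) was 0.00 with the block and genes only, 0.10 with the GC offset, 0.16 with both block and offset, and -0.31 to 0.26 with a library left out. With the GC offset, and with offset and block, Trp53 (-0.11) was 0.01 and 0.01, Bax (-0.15) 0.04 and 0.02, and Mcl1 (-0.04) 0.04 and 0.05. With a library left out, Trp53 ran from -0.38 to 0.07, Mdm4 from -0.36 to 0.11, Bcl2 from 0.00 to 0.56, Mcl1 from -0.28 to 0.13 and Fas from -0.28 to 0.77. Of 1655 recomputed results, 1145 kept direction and side of the threshold and 27 changed sign. The cause of these changes was not tested. With 2 libraries a group and Perp at 0 to 3 counts in untreated libraries, low genes are measured with little precision.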
